A study of Homo sapiens with 6 samples.

Results

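The genes described here are 10 tetraspanins, CD82 (KAI1) and its relatives CD9, CD63, CD81, CD151, TSPAN1, TSPAN3, TSPAN14, TSPAN15 and TSPAN31. They were named by symbol, but with earlier results of these data known. All 10 are present among the 12180 protein-coding genes of the deposited gene table. The transcript table lists 39 of their transcripts among 33090. The unit of both tables is FPKM, a read abundance scaled for transcript length and for the total of the library.

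The study asked which genes respond to FGL1, a secreted fibrinogen-like protein, in esophageal squamous cell carcinoma (ESCC). RNA of TE1 cells, an established human ESCC line, was sequenced in 3 libraries of cells made to overexpress FGL1 from a lentivirus (FGL1-OE) and in 3 control libraries (NC). By the study's methods, infected cells were kept as stable lines by puromycin selection and the controls carried a random nonsense sequence, whereas the sample labels give the control genotype as WT. Nothing in the labels says whether the 3 libraries of a group came from separate cultures, so the p-values below measure only the spread between these libraries, which may be technical.

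Tetraspanins cross the membrane several times and carry a small and a large extracellular loop, the large one marked by a conserved CCG motif. They bind each other, integrins, immunoglobulin-like proteins and proteases, and so organise patches of the plasma membrane and of endosomes. CD82 was first named as a suppressor of metastasis, and CD9, CD63 and CD81 are the usual surface markers of exosomes.

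The labels were checked first. NC 1, 2 and 3 held 0.0202, 0 and 0.106 FPKM of FGL1 against 33.55, 39.35 and 39.9 FPKM for FGL1-OE 1, 2 and 3, a log2 difference of 5.21 ± 0.15 (SE) with an adjusted limma p of 1.285e-05. Of 11 squamous epithelial markers 10 had a row (KRT14 had none), with summed levels of 567 to 821 FPKM in NC and 750 to 840 FPKM in FGL1-OE. The highest of them in NC were SFN (198 to 459 FPKM), KRT6A (108.3 to 160.3) and EPCAM, an epithelial adhesion protein (90.5 to 122). KRT5 (4.27 to 6.235 FPKM), KRT17 (6.13 to 11.6), DSG3 (6.42 to 11.3) and DSC3 (1.23 to 2.56) were low there. TP63, a defining squamous gene, was at most at 0.779 FPKM. The sum therefore shows epithelial cells more than squamous ones. Fibroblast markers (3 of 6 with a row) summed to 2.29 to 8.11 FPKM in NC and 3.24 to 8.27 FPKM in FGL1-OE, leukocyte markers (2 of 6) to 3.11 to 6.06 and 3.62 to 5.67 FPKM, and none of 4 endothelial markers had a row. NC 1 and NC 2 stood apart, and from each other most, with a Pearson r across genes of 0.885 between them. NC 1 correlated with the FGL1-OE libraries at 0.935 to 0.953, NC 2 at 0.955 to 0.971 and NC 3 at 0.978 to 0.982, against 0.981 to 0.986 among the FGL1-OE libraries. NC 1 was the lowest or the highest of the 6 libraries for 70.7% of genes and NC 2 for 66.7%, against 12.7% to 20.3% for the other libraries. The tables hold no read counts, and none could be recovered from the spacing of low FPKM values. Sequencing depth is therefore unknown, and no counting intervals are given.

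TE1 cells carried the 10 tetraspanins at levels that spanned much of the table. CD63, which resides in late endosomes and lysosomes, was the most abundant of them, with a mean of 88.1 FPKM over the 6 libraries (SD 5.69, range 81.1 to 94.6), above 97.2% of the listed genes. CD9 followed at 49.5 FPKM (34.0 to 61.3), and TSPAN15, a tetraspanin that binds the protease ADAM10, at 24.7 FPKM (22.2 to 27.4). The ranges of these first 3 overlapped neither each other nor those of the genes below them.

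From there the order was less certain. TSPAN3 averaged 14.6 FPKM (9.565 to 21.0), CD82 11.3 (5.69 to 16.4), CD151 10.1 (7.0 to 14.6) and TSPAN1 8.34 (5.11 to 11.2). CD81 averaged 6.69 FPKM (5.56 to 8.88) and TSPAN14 5.10 (2.20 to 7.51). Each of these 6 genes overlapped the next of them in range, and CD82 was above CD151 in 5 of 6 libraries while TSPAN3 was above CD82 in 3 of 6. TSPAN31 was separate from all of them at 1.39 FPKM (1.14 to 1.83), above 14.9% of the listed genes.

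**Figure D1:**
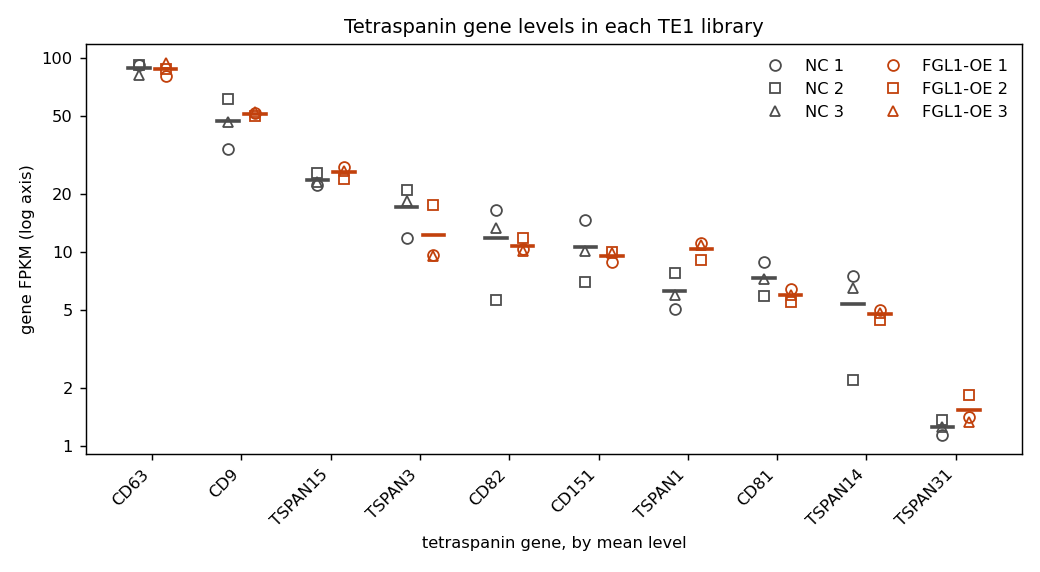
Gene FPKM (log axis) of the 10 tetraspanins in each TE1 library, with NC in grey, FGL1-OE in orange and a bar at each group's mean. CD63 lies between 81.1 and 94.6 in all 6 libraries, and TSPAN1 is the gene whose FGL1-OE points all lie above its NC points.

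No tetraspanin gene passed the test between FGL1-OE and NC. By limma on log2(FPKM + 1), adjusted over 12017 genes, 0 of the 10 had an adjusted p under 0.05, where the background is 0.00832% of genes (1 gene, FGL1). An ordinary linear model also called 0. At an unadjusted p under 0.05 there was 1 tetraspanin, TSPAN1, by either model, against 2.01% of all genes by limma (1.21% with FGL1-OE above NC). The log2 difference was above 0 for 4 of the 10 and below 0 for 6, with a median of -0.014 beside 0.016 over all genes. In bulk RNA, less RNA per cell and fewer cells carrying it cannot be told apart.

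CD82 (chr11:44585977-44641913 on GRCh37) had levels of 16.4, 5.69 and 13.3 FPKM for NC 1, 2 and 3, against 10.4, 11.8 and 10.1 FPKM for FGL1-OE 1, 2 and 3. Later values follow this order of libraries. The control libraries lay on both sides of the FGL1-OE libraries, NC 2 below all of them and NC 1 and NC 3 above. The group means were 11.8 ± 5.53 and 10.7 ± 0.889 FPKM (SD, n = 3 each), a log2 difference of -0.018 ± 0.34 (SE) with an adjusted limma p of 1.

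CD9 and CD81, which pair with the immunoglobulin-like proteins IGSF8 and PTGFRN and act in cell fusion and adhesion, also overlapped between groups. CD9 (chr12:6308881-6347437) was at 34.0, 61.3 and 46.6 FPKM in the NC libraries, against 51.9, 50.4 and 52.7 FPKM under FGL1-OE, so that the FGL1-OE values fell inside the control range (log2 difference 0.17 ± 0.22). CD81 (chr11:2397407-2418649) was at 8.88, 5.92 and 7.29 FPKM in the NC libraries, against 6.43, 5.56 and 6.04 FPKM under FGL1-OE (-0.24 ± 0.17). Here NC 2 lay among the FGL1-OE values and the other controls above them.

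CD151, the partner of laminin-binding integrins, and CD63 did not separate by group either. CD151 (chr11:832843-839831) was at 14.6, 7.0 and 10.1 FPKM in the NC libraries, against 8.85, 9.97 and 9.89 FPKM under FGL1-OE, again with NC 2 as the lowest library. The log2 difference was -0.078 ± 0.24. CD151 shares 2476 bases with POLR2L, a subunit of RNA polymerases, which was at 82.0, 27.9 and 45.9 FPKM in the NC libraries, against 55.8, 42.8 and 41.5 FPKM under FGL1-OE. The library kit keeps strand, but whether the counting used it is not stated, so for the shared bases reads of the pair cannot be told apart here. CD63 (chr12:56119107-56123491) was at 91.75, 91.8 and 81.6 FPKM in the NC libraries, against 81.1, 87.6 and 94.6 FPKM under FGL1-OE, with SDs of 5.90 and 6.77 FPKM and a difference of -0.011 ± 0.15.

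TSPAN1, an epithelial tetraspanin, was the member whose groups lay apart. The gene (chr1:46640745-46651630) was at 5.11, 7.81 and 5.999 FPKM in the NC libraries, against 11.2, 9.10 and 10.8 FPKM under FGL1-OE. Every FGL1-OE library was above every NC library, and the means of 6.305 ± 1.38 and 10.4 ± 1.12 FPKM (SD, n = 3 each) differed 1.65-fold. On the log2 scale the difference was 0.65 ± 0.18, with an unadjusted limma p of 0.00818 and an adjusted p of 1. The exact two-sided permutation test gave p = 0.1, the smallest value that 3 against 3 libraries allow. Of all genes tested, 7.15% had groups that did not overlap, 4.09% with FGL1-OE above NC, against 1 of the 10 tetraspanins. Over the other settings tried the difference of TSPAN1 stayed between 0.53 and 0.79, and its adjusted p was 0.195 at the least.

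TSPAN3 had the most negative difference of the 10. TSPAN3 (chr15:77333745-77376326) was at 11.9, 21.0 and 18.2 FPKM in the NC libraries, against 9.705, 17.45 and 9.565 FPKM under FGL1-OE, so FGL1-OE 2 lay with the controls. The difference was -0.46 ± 0.29, with an unadjusted limma p of 0.149 and an exact permutation p of 0.2.

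Among the members, the ADAM10-binding TSPAN15 and TSPAN14 overlapped between groups. TSPAN15 (chr10:71211229-71267425) was at 22.2, 25.6 and 22.85 FPKM in the NC libraries, against 27.4, 23.8 and 26.0 FPKM under FGL1-OE, a difference of 0.12 ± 0.14. TSPAN14 (chr10:82213922-82292879) was at 7.51, 2.20 and 6.56 FPKM in the NC libraries, against 5.01, 4.49 and 4.835 FPKM under FGL1-OE, a difference of -0.033 ± 0.35. As for CD82, the FGL1-OE values of TSPAN14 lay between NC 2 and the other controls.

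TSPAN31 (chr12:58131796-58143994), a gene next to CDK4 that is co-amplified with it in sarcomas, was at 1.14, 1.36 and 1.26 FPKM in the NC libraries, against 1.42, 1.83 and 1.33 FPKM under FGL1-OE. Its groups overlapped through NC 2 alone and differed by 0.16 ± 0.15. The gene shares 2485 bases with CDK4, which was at 32.8 to 43.75 FPKM in the 6 libraries, and 4145 bases with AGAP2. As for CD151, reads of the shared bases cannot be told apart here, and TSPAN31 is far the lower of the pair with CDK4.

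NC 1 and NC 2 lay at the ends of the controls, NC 1 lowest or highest of the 6 libraries for 8 of the 10 tetraspanins, NC 2 for 5 and NC 3 for 0. The median SD of log2(FPKM + 1) over the tetraspanins was 0.334 in NC and 0.103 in FGL1-OE, beside 0.308 and 0.120 over all genes, and the SD was larger in NC for 7 of the 10 and for 84.1% of all genes. NC 2 was below the mean of NC 1 and NC 3 by log2 differences of -1.32 for TSPAN14, -1.24 for CD82, -0.72 for CD151 and -0.39 for CD81. It was above that mean by 0.61 for CD9, 0.48 for TSPAN3 and 0.43 for TSPAN1. The genes that were low in NC 2 were mostly GC-rich, with 59.0% G and C in the most abundant CD82 transcript, 61.2% for CD151 and 62.7% for CD81, against 46.2% for CD9. Spearman's rho between GC content and the departure of NC 2 was -0.721 over the 10 tetraspanins and -0.794 over 11775 genes, which are points from the same libraries and not independent. Some members lay off this order, as TSPAN14 was low in NC 2 at 53.0% GC, while CD63 at 58.9% and TSPAN15 at 57.4% were not low there (0.085 and 0.18). Since the departure is measured against NC 1 and NC 3, it also holds the opposite position of NC 1. The part of GC content in the group differences was not tested.

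**Figure D2:**
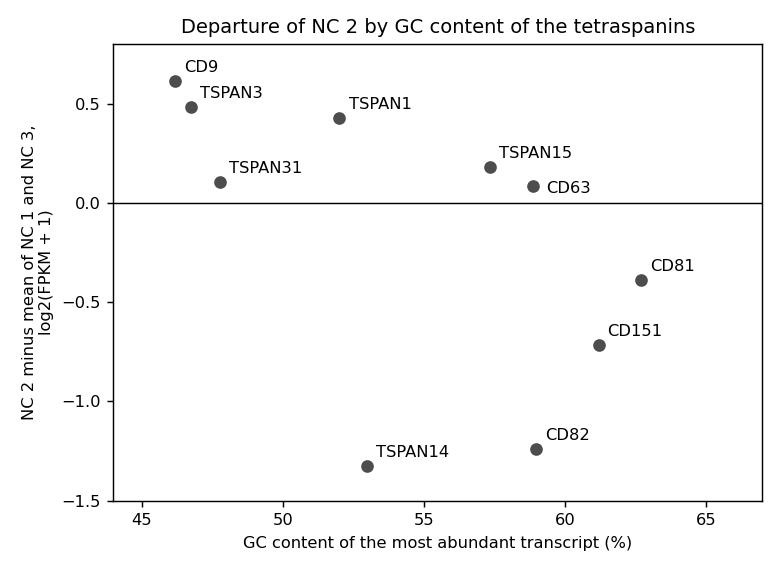
Departure of NC 2 from the mean of NC 1 and NC 3 on the log2(FPKM + 1) scale (vertical) against the GC percent of the most abundant transcript of each tetraspanin (horizontal). CD9, at 46.2% GC, lies at 0.61 and CD82, at 59.0%, at -1.24, with TSPAN14 lowest at -1.32.

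Without NC 2 the picture of the tetraspanins was different, as it was for genes at large. Then 4 of the 10 had an unadjusted p under 0.05 in limma, TSPAN1 (0.79, adjusted p = 0.195), TSPAN14 (-0.47, adjusted p = 0.195), CD82 (-0.43, adjusted p = 0.1997) and CD81 (-0.37, adjusted p = 0.211), while 21.8% of all genes did so. The groups of 8 of the 10 did not overlap, with FGL1-OE above NC for TSPAN1, CD9, TSPAN15 and TSPAN31 and below NC for TSPAN14, CD82, CD81 and CD151, where 43.0% of all genes had groups apart. Without NC 1 instead, 2 of the 10 had an unadjusted p under 0.05 in limma, TSPAN1 and TSPAN3 (-0.69), beside 330 of all genes. With all 6 libraries 242 of 12017 genes (2.01%) had one. How many groups lay apart without NC 1 is not given here. The adjusted p of all 10 was 0.9993. The differences were then 0.26 for CD82, 0.23 for TSPAN14, 0.17 for CD151 and -0.048 for CD9, each of the opposite sign to that without NC 2, and 0.53 for TSPAN1.

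CD82's level across libraries was followed closely by many genes. Those with the highest Pearson r on log2(FPKM + 1) over the 6 libraries were NOM1 (0.997), EGFL8 (0.996) and INPPL1 (0.996), and 312 of 12016 genes had r over 0.95. Among the tetraspanins TSPAN14 (0.971) and CD151 (0.922) ran with CD82, whereas CD9 ran opposite to it (-0.889, with the 6 libraries in exactly reversed order). The genes named here all have NC 2 at one end and NC 1 at the other, and the values describe 6 libraries with no test.

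Transcripts are named as in GENCODE v29. At transcript level, 0 of the 39 listed transcripts had an adjusted limma p under 0.05 over 30330 transcripts, where the background was 0.0165%, and an ordinary linear model also called 0. At an unadjusted p under 0.05 there were 3, CD82-204 above NC and TSPAN14-202 and TSPAN14-203 below it, against 3.53% of all transcripts by limma (2.05% above NC and 1.48% below). The same 3 transcripts, 7.69% of the 39, were those whose groups did not overlap, beside 8.22% of all transcripts (4.65% above NC and 3.57% below). The median log2 difference was -0.038, with 19 transcripts above 0 and 20 below.

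**Figure D3:**
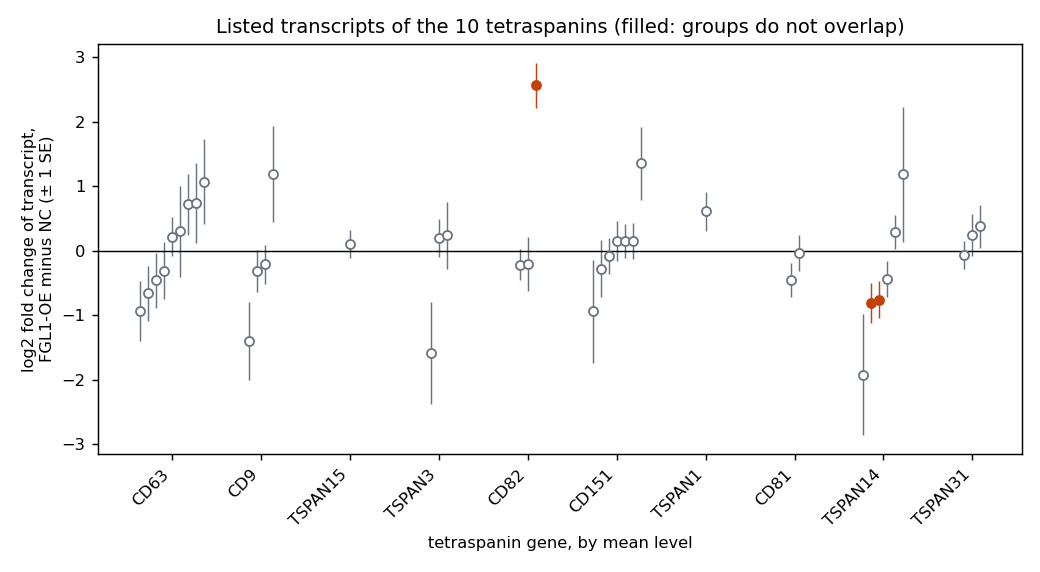
Log2 difference, FGL1-OE minus NC, of the 39 listed transcripts grouped by tetraspanin gene, with bars of 1 standard error and filled points where the groups do not overlap. The filled points are CD82-204 at 2.56, TSPAN14-202 at -0.82 and TSPAN14-203 at -0.76.

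The CD82 transcript CD82-204 (ENST00000524750) was at 0.586, 0 and 0.421 FPKM in the NC libraries, against 4.26, 9.61 and 7.30 FPKM under FGL1-OE. All 3 FGL1-OE libraries were above all NC libraries, and the transcript is listed at 0 in NC 2. It passed the filter of 0.5 FPKM only through FGL1-OE, with means of 0.336 FPKM in NC and 7.06 FPKM in FGL1-OE. The log2 difference was 2.56 ± 0.35, with an unadjusted limma p of 0.000279, an adjusted p of 0.233 and an exact permutation p of 0.1. Over 14 other settings it stayed between 2.33 and 4.37, with adjusted p from 0.178 to 0.9999. The transcript with most of the summed FPKM of the listed CD82 transcripts was CD82-201 (ENST00000227155). It was at 28.3, 9.44 and 23.1 FPKM in the NC libraries, against 16.1, 16.9 and 14.7 FPKM under FGL1-OE. Its groups overlapped, as for the gene as a whole.

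CD82-204 is a short annotated fragment of 757 bases in 2 exons whose coding sequence is tagged incomplete. It begins inside exon 8 of CD82-201 and joins it directly to exon 10, leaving out exon 9 of 10, which has 84 bases (chr11:44618640-44618723 on GRCh38, plus strand) and is wholly coding. That exon encodes the end of the large extracellular loop and the start of the fourth membrane segment, and its length is a multiple of 3. The join occurs in 1 of the 14 CD82 transcripts annotated in GENCODE v29, so it is the sequence that tells CD82-204 from CD82-201. Both forms are printed 5′ to 3′, the first with exon 9 in capitals, the second with the last base of exon 8 and the first base of exon 10 in capitals.
CD82-201: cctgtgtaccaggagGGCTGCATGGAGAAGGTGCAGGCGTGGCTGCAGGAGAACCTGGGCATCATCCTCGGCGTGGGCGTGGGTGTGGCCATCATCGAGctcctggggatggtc
CD82-204: cctgtgtaccaggaGCtcctggggatggtc

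These letters come from the reference and not from the libraries, whose reads were not analysed here. Of the 31-base words of CD82-204, 3.71% are found in no other CD82 transcript of the annotation, so its FPKM rests on an apportioning of reads that it mostly shares.

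As a share of the summed FPKM of the listed CD82 transcripts, CD82-204 took 1.93%, 0% and 1.72% in NC and 19.96%, 35.3% and 32.1% in FGL1-OE. CD82-201 took 93.1%, 91.8% and 94.3% in NC and 75.4%, 62.0% and 64.8% in FGL1-OE. Neither share overlapped between groups, and NC 2 lay with the other controls in both, unlike in the level of the gene. The mean share of CD82-204 was 27.9 percentage points higher in FGL1-OE (24.8 to 32.5 with any 1 library left out), at the exact permutation limit of p = 0.1. The summed CD82 level was 30.4, 10.3 and 24.5 FPKM in the NC libraries, against 21.3, 27.2 and 22.7 FPKM under FGL1-OE, a log2 difference of 0.24 ± 0.38 that did not pass the test.

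**Figure D4:**
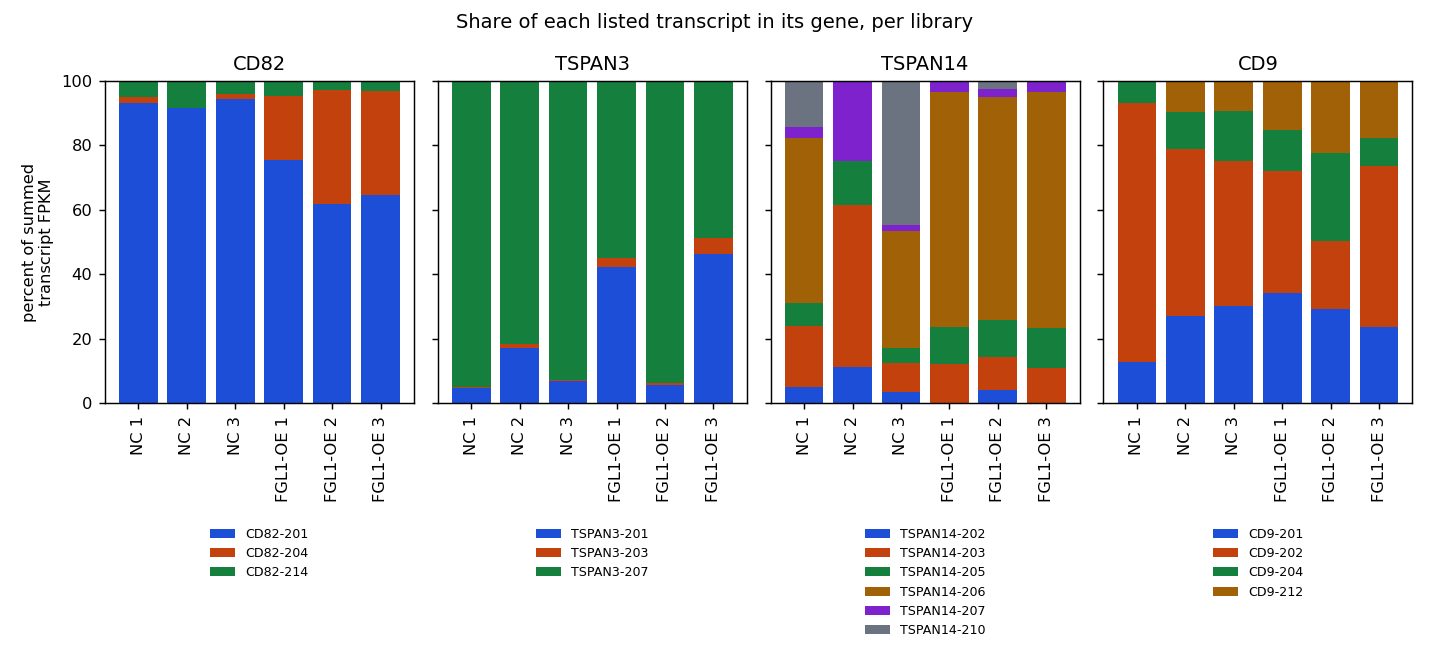
Percent of the summed transcript FPKM taken by each listed transcript of CD82, TSPAN3, TSPAN14 and CD9 in each library, as stacked bars from 0 to 100. CD82-204 takes 0 to 1.93% in NC and 19.96 to 35.3% in FGL1-OE, and TSPAN3-207 takes 93.75% in FGL1-OE 2 but 54.95% and 48.8% in the other FGL1-OE libraries.

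Over all 8 tetraspanin genes with 2 or more listed transcripts, 6 of 37 shares (16.2%), in 4 genes, had groups that did not overlap, beside 9.31% of 28929 shares in the whole table. Shares of a gene add to 100% and so are not independent. Besides the pair of CD82, CD81-201 took 93.8%, 94.0% and 92.8% in NC and 95.2%, 96.6% and 96.2% in FGL1-OE, mirrored by the only other listed transcript, CD81-207. CD9-212 took 0.146%, 9.71% and 9.39% in NC and 15.25%, 22.2% and 17.55% in FGL1-OE, with NC 1 near 0.

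TSPAN14-206, the most abundant TSPAN14 transcript, was at 15.4, 0 and 11.4 FPKM in the NC libraries, against 12.8, 11.7 and 12.6 FPKM under FGL1-OE. Its share was 51.3%, 0% and 36.2% in NC and 72.8%, 69.2% and 73.3% in FGL1-OE. It is listed at 0 in NC 2, and the share difference of 42.6 points became 28.0 points without that library. TSPAN14-210, named after its values were seen, took the larger share of NC 3 (44.6%) but at most 2.58% of any FGL1-OE library. By the count of words used above for CD82, 0% of those of TSPAN14-206 and 0.125% of those of TSPAN14-210 are its own. The levels and shares of both, with the 0 in NC 2, therefore rest on an apportioning of shared reads.

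TSPAN14-202, a minor transcript, held 1.486, 0.809 and 1.08 FPKM in the controls and is listed at 0, 0.715 and 0 FPKM under FGL1-OE (log2 difference -0.82 ± 0.31). Its mean was 1.13 FPKM in NC and 0.238 FPKM in FGL1-OE. Only the controls thus brought it over the filter of 0.5 FPKM, and with the filter at 1 FPKM it was not tested. With a replicate block its unadjusted limma p was 0.0794. TSPAN14-203 was at 5.74, 3.55 and 2.86 FPKM in the NC libraries, against 2.14, 1.70 and 1.87 FPKM under FGL1-OE (-0.76 ± 0.29), and its share was 19.1%, 50.05% and 9.12% in NC, where it led in NC 2. Their groups did not overlap in either case, with unadjusted limma p of 0.0376 and 0.0355, adjusted p of 0.9999 and an exact permutation p of 0.1 for both.

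TSPAN14-202, like CD82-204, differs from the longer form by an exon that is left out. It lacks exon 5 of the 9 exons of TSPAN14-207 (171 bases, chr10:80509301-80509471 on GRCh38, plus strand), which encodes the third membrane segment and the start of the large loop up to the CCG motif. The sequences show the skipped exon in capitals and then the join, with the bases on either side of it in capitals.
TSPAN14-207: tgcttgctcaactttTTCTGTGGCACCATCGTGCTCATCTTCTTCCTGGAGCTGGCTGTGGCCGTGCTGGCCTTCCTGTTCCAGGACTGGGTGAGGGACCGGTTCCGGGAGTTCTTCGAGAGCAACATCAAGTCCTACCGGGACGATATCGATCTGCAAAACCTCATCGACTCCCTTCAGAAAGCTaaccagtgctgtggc
TSPAN14-202: tgcttgctcaacttTAaccagtgctgtggc

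The most abundant TSPAN3 transcript by the deposited values, TSPAN3-207, was at 59.85, 64.1 and 84.6 FPKM in the NC libraries, against 12.3, 84.35 and 10.02 FPKM under FGL1-OE. FGL1-OE 2 was within the control range and the other FGL1-OE libraries far below it, so the log2 difference of -1.59 ± 0.79 did not pass the test. Its share was 95.0%, 81.5% and 92.9% in NC and 54.95%, 93.75% and 48.8% in FGL1-OE, with TSPAN3-201 taking most of the rest. Without FGL1-OE 2 the difference was -2.53, with an adjusted limma p of 0.312.

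TSPAN3-207 leaves out exons 2 and 3 of the 7 exons of TSPAN3-201, which hold 192 bases (chr15:77056064-77056255 on GRCh38, minus strand) and 75 bases (chr15:77055789-77055863). Together these 267 bases encode the end of the first membrane segment, the small extracellular loop and the second and the third membrane segment. Skipping them keeps the reading frame. They are shown in capitals in the sense of the gene, followed by the join.
TSPAN3-201: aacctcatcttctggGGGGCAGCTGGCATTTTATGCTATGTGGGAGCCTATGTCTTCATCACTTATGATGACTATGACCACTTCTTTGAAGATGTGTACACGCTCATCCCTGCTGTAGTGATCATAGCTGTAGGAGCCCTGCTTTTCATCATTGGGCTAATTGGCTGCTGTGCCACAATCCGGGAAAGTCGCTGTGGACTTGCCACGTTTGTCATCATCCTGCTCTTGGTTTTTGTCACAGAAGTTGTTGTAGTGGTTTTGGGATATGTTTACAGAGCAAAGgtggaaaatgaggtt
TSPAN3-207: aacctcatcttctgGGtggaaaatgaggtt

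Of the 31-base words of TSPAN3-207 2.16% are its own, and of those of TSPAN14-202 2.88%, as little as for CD82-204. Each of the 3 joins occurs in a single annotated transcript of its gene, and each skips a multiple of 3 bases. Of the skipped exons, those of 75 and 84 bases were compared with the rest of the family. A coding exon of 75 bases, as in TSPAN3, is annotated in 8 of the 10 tetraspanins against 10.03% of 11974 listed genes, and one of 84 bases, as in CD82, in 6 of the 10 against 10.6%. The windows above show reference sequence and say nothing on which form the cells made.

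Adding up the listed transcripts of a gene did not always give the picture of the gene table. The summed CD9 level was 87.2, 78.0 and 50.3 FPKM in the NC libraries, against 44.8, 32.0 and 52.6 FPKM under FGL1-OE, a log2 difference of -0.71 ± 0.28 (unadjusted limma p of 0.0381, adjusted p of 1), where the gene table gave 0.17. It followed CD9-202 (ENST00000382515), which was at 70.1, 40.5 and 22.6 FPKM in the NC libraries, against 16.9, 6.76 and 26.3 FPKM under FGL1-OE. Of the words of CD9-202, 0% are its own among the annotated CD9 transcripts and 15.1% among the listed ones. Its FPKM thus also rests on an apportioning of reads that it mostly shares. In the sums 2 of 10 tetraspanins had an unadjusted p under 0.05, CD9 lower and TSPAN1 higher (0.61), against 2.77% of 11906 genes. The summed TSPAN3 level had a difference of -1.12 ± 0.53, with FGL1-OE 2 again near the controls at 89.98 FPKM. The levels differed too. In NC 1 TSPAN3-207 alone was at 59.85 FPKM, where the gene was at 11.9 FPKM. CD82-201 alone was at 28.3 FPKM there, and its gene at 16.4 FPKM. For CD9 in FGL1-OE 2 the sum (32.0 FPKM) was instead below the gene (50.4 FPKM). The shares are therefore parts of the transcript sums and not of the gene levels.

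The most abundant transcripts of the other tetraspanins had groups that overlapped. CD63-201 was at 86.9, 157.8 and 142.1 FPKM in the NC libraries, against 133.8, 139.9 and 164.4 FPKM under FGL1-OE (0.22 ± 0.30). CD151-213 was at 28.1, 10.9 and 15.1 FPKM in the NC libraries, against 1.68, 17.0 and 15.3 FPKM under FGL1-OE (-0.94 ± 0.80), with FGL1-OE 1 alone below the rest. CD81-201 differed by -0.038 ± 0.28, TSPAN15-201 by 0.11 ± 0.22 and TSPAN31-201 by 0.24 ± 0.32. TSPAN31-201 took on average 46.0% of its gene's summed transcripts in NC and 46.3% in FGL1-OE, so it did not lead in every library. TSPAN1-201, the only listed transcript of its gene, was at 6.44, 9.58 and 6.37 FPKM in the NC libraries, against 11.7, 8.905 and 15.4 FPKM under FGL1-OE. Its groups overlapped, since FGL1-OE 2 was below NC 2, where the gene table had them apart.

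**Figure D5:**
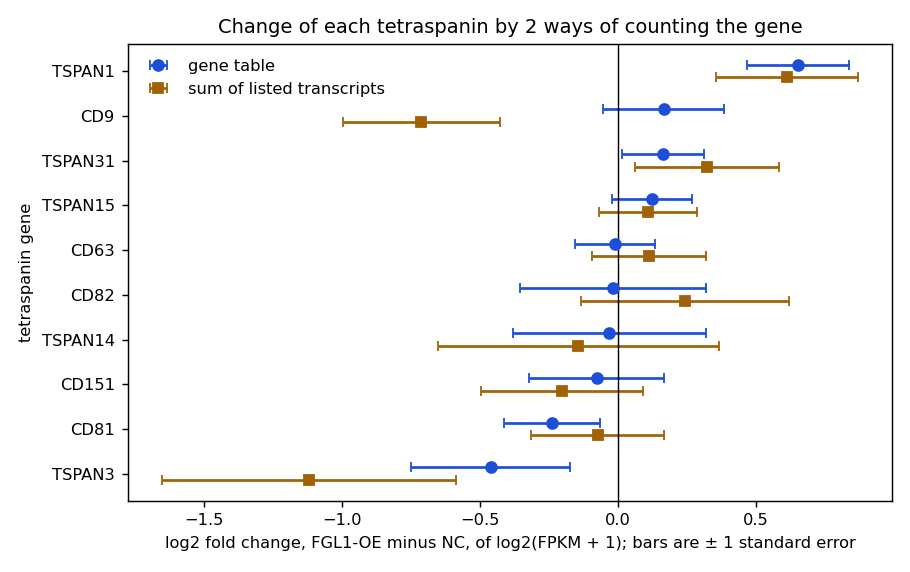
Log2 difference, FGL1-OE minus NC, with bars of 1 standard error, for each tetraspanin from the gene table (circles) and from the sum of its listed transcripts (squares). TSPAN1 lies at 0.65 and 0.61 by the 2 counts, whereas CD9 lies at 0.17 and -0.71.

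The rest of the family and its surroundings were read from 4 lists. Of 23 other tetraspanins 11 were tested, of which 0 had an adjusted p under 0.05 and 0 an unadjusted p under 0.05 in limma, with 0 adjusted calls in the ordinary linear model too. Their median log2 difference was -0.0065 (range -0.43 to 0.30). TSPAN13, the most abundant of them, was at 54.1, 101.5 and 64.5 FPKM in the NC libraries, against 90.03, 84.7 and 87.9 FPKM under FGL1-OE, and TSPAN6, the next, at 5.95, 13.4 and 8.23 FPKM and at 11.3, 10.15 and 11.35 FPKM. In both, NC 2 was the highest library and the FGL1-OE values lay inside the control range.

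All 19 tetraspanin partners were tested, and 12 had a difference above 0 and 7 below, with a median of 0.055. HBEGF, a growth factor that CD9 binds, had an unadjusted p under 0.05 in limma, at 2.61, 4.44 and 3.675 FPKM in the NC libraries, against 5.24, 5.545 and 5.10 FPKM under FGL1-OE (0.48 ± 0.18). Its groups did not overlap, and no partner had an adjusted p under 0.05. HBEGF was thus 1 of 19 partners by either measure, against 2.01% of all genes at an unadjusted p under 0.05 and 7.15% with groups apart. The most abundant partners were ITGB1, the integrin beta-1 chain, at 112.3 to 192.2 FPKM in NC and 127.3 to 160.3 FPKM in FGL1-OE, and EPCAM, an epithelial adhesion protein, at 90.5 to 122.0 and 109.2 to 110.4 FPKM. Both overlapped between groups.

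Of 14 exosome and multivesicular body genes, 0 had an unadjusted p under 0.05 in limma, and neither limma nor the ordinary linear model gave an adjusted p under 0.05. The median difference was 0.067, with 9 genes above 0 and 5 below. SDC4, a syndecan, was at 118.2 to 168.7 FPKM in NC and 122.1 to 143.8 FPKM in FGL1-OE, and CHMP4B, a subunit of the ESCRT machinery, at 84.65 to 117.3 and 102.3 to 104.2 FPKM. Of 8 genes known to regulate CD82, 0 had an unadjusted p under 0.05 in limma and 0 an adjusted call in either model, with a median difference of 0.0035. RUVBL2 was at 47.0 to 70.5 FPKM in NC and 53.9 to 68.5 FPKM in FGL1-OE, and JUNB, an AP-1 subunit, at 32.9 to 57.9 and 46.7 to 54.9 FPKM. NFKB1, named after its values were seen, was the regulator whose groups did not overlap, at 8.19, 9.38 and 9.205 FPKM in the NC libraries, against 9.51, 10.9 and 10.4 FPKM under FGL1-OE. It was 1 of 8, beside the 7.15% of all genes with groups apart, and its unadjusted limma p was 0.232 (adjusted p of 1).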

How the data were processed

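mRNA of the 6 libraries was enriched with oligo(dT) beads and made into stranded libraries. The authors deposited FPKM per library for genes and transcripts, and the submitters' processing notes name StringTie and GRCh37; the aligner is not given in the sources used here. The tables' own comparisons (mean log2 values, fold changes, p and q values) were not used, and 0 columns lacked a sample.

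Libraries were grouped by the genotype label. The test was limma 3.58.1 (R 4.3.3) on log2(FPKM + 1) for features averaging 0.5 FPKM or more, adjusted by Benjamini-Hochberg within each table at a threshold of 0.05. Single values had exact two-sided permutation tests. The code was tested on simulated data with independent noise and the same spread in both groups. In the libraries the median SD over genes was 0.308 in NC and 0.120 in FGL1-OE. The rates that follow therefore hold for the simulation and may differ for these libraries. At a simulated log2 change of 1 the test called 37.5% of the changed genes and 0% of the changed transcripts. At a change of 2 it called 91.5% and 17.5%. A feature that was not called is therefore not shown to be unchanged. GENCODE v29 (GRCh38) served for transcript names, exons, sequences and GC content only; all 39 transcripts matched by identifier. Gene coordinates are on GRCh37.

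The members and the lists were chosen with earlier results of these data known. Named features are FGL1, the members, their most abundant transcripts and those with an unadjusted p under 0.05 or groups apart, the genes of each list with an unadjusted p under 0.05 or, where fewer than 2, the 2 most abundant, and the 3 genes most correlated with CD82. Alternatives were no filter, a filter at 1 FPKM, a pseudocount of 0.1, TPM scaling, quantile normalization, an ordinary linear model, a replicate block, transcript sums and each library left out. Fits with the trend on GC content and length removed were chosen after seeing the data.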

Additional observations from a re-analysis of the deposited data

How the results depend on the processing

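No tetraspanin gene, listed transcript or related gene had an adjusted p under 0.05 under any alternative run. The count over all genes was 1 and became 2 with the ordinary linear model, 2 with the GC and length trend removed, and 1 to 7 with a library left out (7 without NC 2). Genes with an unadjusted p under 0.05 numbered 242, against 374 with the ordinary linear model, 756 with the trend removed and 138 to 2610 with a library left out. Transcripts with an adjusted p under 0.05 numbered 5, against 29 with a pseudocount of 0.1, 3 with the ordinary linear model and 1 to 28 with a library left out. The transcript shares of tetraspanins with groups apart numbered 6, and 7 to 14 with a library left out (14 without NC 2), where fewer libraries make separation easier by construction.

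Of 150 alternative values of the 10 genes 17 changed sign. CD82 was 0.025 with the trend removed, 0.24 as a sum of transcripts and -0.43 to 0.26 with a library left out. CD9 was -0.71 as a sum and -0.048 to 0.37 with a library left out, and CD63 0.016 with the trend removed, 0.11 as a sum and -0.067 to 0.045. Leaving out libraries took CD151 from -0.32 to 0.17 and TSPAN14 from -0.47 to 0.23. Of 181 values of the named transcripts 7 changed sign: CD82-201 ranged from -0.66 to 0.088, CD63-201 from -0.042 to 0.38, CD81-201 from -0.26 to 0.11 (0.0059 with the trend removed) and TSPAN14-206 from -0.095 to 1.92. For these signs the cause was not tested. Without NC 2 the median of the tetraspanins was -0.14 and without NC 3 it was 0.11.

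Whether equal replicate numbers pair the libraries was not settled, and the main test took them as unpaired. Same-numbered libraries deviated with correlations of 0.345, 0.282 and -0.0614 for numbers 1, 2 and 3. Libraries numbered 1 and 2 correlated best with their own number. NC 3 did so with FGL1-OE 1 (0.111) and FGL1-OE 3 with NC 2 (0.136). With a replicate block 1 of 12017 genes was called, and 298 had an unadjusted limma p under 0.05, against 242 without the block. At transcript level 0 were called. Of the 10 tetraspanins 2 had an unadjusted limma p under 0.05 with the block, TSPAN1 and TSPAN3. Without read counts, depth limits on the low transcripts cannot be stated.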
